A study of Mus musculus with 2 samples.

Results

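The 8 genes described here encode receptors of the neurotrophins and of the GDNF family of ligands. They were taken by symbol from the 32286 genes counted in single nuclei of mouse vagus nerve ganglia, where 26032 genes had at least 1 UMI (a unique molecular identifier, which stands for 1 captured RNA molecule). All 8 were found. Ntrk2 (TrkB, the receptor of Bdnf and Ntf5), Ntrk3 (TrkC, the receptor of Ntf3) and Ngfr (p75NTR, which binds every neurotrophin) are the neurotrophin receptors. Gfra1, Gfra2, Gfra3 and Gfra4 are co-receptors anchored in the membrane by a lipid, and Ret is the receptor tyrosine kinase through which they signal. Other receptors of these families were not analysed here.

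Neurotrophins act on Trk kinases and on p75NTR and are known for keeping developing sensory and sympathetic neurons alive. In the classical scheme Gdnf acts through Gfra1, Nrtn through Gfra2, Artn through Gfra3 and Pspn through Gfra4, each with Ret. Neurons of the nodose ganglion, which arise from an epibranchial placode, are a classical Bdnf-dependent population, whereas neurons of the jugular ganglion arise from the neural crest and resemble somatic sensory neurons. Both TrkB and TrkC also exist as truncated forms without a kinase domain, and glia are known for truncated TrkB. Counting at the 3′ end by gene does not tell these forms apart.

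The study compared female and male mice of the strain C57BL/6J that carry Rosa26-floxed-STOP-Cas9-eGFP, an allele in which Cas9 and eGFP are made only after Cre has removed a stop sequence. Mice of both sexes ate a standard chow diet and had AAVrg-Cre, a virus that travels backwards along axons, injected into the liver 4 weeks before collection. They had been bought at 8 to 9 weeks of age. The female library held 14 ganglia of 7 mice and the male library 16 ganglia of 8 mice, so that each sex was 1 pool and 1 library. Sex cannot be told apart from library, and no test between the sexes was possible. The nuclei were not limited to cells reached by the virus, and 405 cerebellar granule cell-like nuclei (381 of them female) and an unnamed cluster of 311 nuclei that led in Pou1f1 and Pomc, with a mean log2 fold of 3.06 for the pituitary list, are not cell types of a vagal ganglion.

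The female library held 17435300 UMIs in 3791 nuclei (median 2381 UMIs) and the male library 27529730 UMIs in 4923 nuclei (median 2658 UMIs), and 8 barcode sequences occurred in both. Levels are UMIs of a gene per 10000 UMIs summed over the nuclei of a group. Intervals are 95% and exact, and they cover counting error only. Levels of different genes depend on gene length and capture and were not compared with each other.

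Nuclei were grouped by clusters that were built without the 8 genes and named from marker lists. There were 2282 neuron-like nuclei, 1251 myelinating Schwann cell-like nuclei (2 clusters, 11 of 11 markers raised in each) and 1052 satellite glia-like nuclei (2 clusters, 6 and 7 of 9 markers raised). The list of neuron markers was the weakest of these, with 3 to 10 of 12 markers raised in the 5 neuron-like clusters. Free RNA gives UMIs in nuclei that do not make a gene, and the 272 macrophage-like nuclei, 136 of each library, served as a reference. The reference is a share of UMIs in shallow nuclei (median 1799.5 UMIs) and not a measured level of free RNA. In deeper nuclei it can overstate free RNA: Gfra1 in male nuclei was at 0.0938 in neuron type 9 and at 0.138 in type 11 (types described below), against 1.07 in macrophage-like nuclei. A level at or below the reference therefore does not show that a gene was not made. The reference differed between the libraries: Ret was at 0.440 (0.227 to 0.768) UMIs per 10000 in female and at 1.69 (1.25 to 2.24) in male macrophage-like nuclei. For Ngfr it was 1.10 (0.742 to 1.57) and 2.07 (1.58 to 2.67), and for Gfra1 it was 0.330 (0.151 to 0.626) and 1.07 (0.728 to 1.52). Of the 5 receptor genes with at least 20 UMIs in macrophage-like nuclei, Gfra1 and Ret were at least 2-fold higher in the male library, against 9.71% of all genes tested there, and 0 were at least 2-fold lower, against 5.27%.

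The neuron-like nuclei fell into 11 types when clustered by themselves. Types 3, 4 and 8 (640 nuclei) were nodose-type and types 7, 9 and 10 (469 nuclei) jugular-type, by the difference between the mean log2 folds of the nodose list (P2rx2, Htr3a and others) and the jugular list (Prdm12, Mrgprd, Tac1 and others). In type 4 the nodose list itself lay below the other neuron types (mean log2 fold -0.17), and it took its name because the jugular list lay lower still (-1.64). Type 8 was much shallower than types 3 and 4, with a median of 3567 UMIs against 13495.5 and 14191. Its leading genes Sncaip, Cysltr2 and Hs3st4 were also among those of type 4. Whether type 8 is a separate type or shallow nuclei of type 4 was not tested. Type 3 was led by Rmst and Tmc3, type 4 by Gm11234 and Hs3st4, with Cysltr2 and Vip among its leading genes, type 7 by Grik1, with Mrgprd among its leading genes, type 9 by Trpm8 and Tafa4, and type 10 by Tac1 and Kit. Gfra3, which the clustering did not use, had the highest fold in type 10 among genes with at least 50 UMIs there. Type 11 was sympathetic-type (Slc6a2, 131 nuclei, of which 5 were female). Type 6, led by Tafa1 and Grm8, was neither. Types 1 and 5 were shallow, with medians of 1715 and 2412.5 UMIs. Type 1 was led by genes of other cells such as Prl, Fabp4 and Hba-a2, and type 5 by AY036118, Atox1 and Cops9, with Hba-a1 among its leading genes. Type 2 was led by satellite glia genes such as Cdh19, Ednrb and Apoe.

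**Figure D1:**
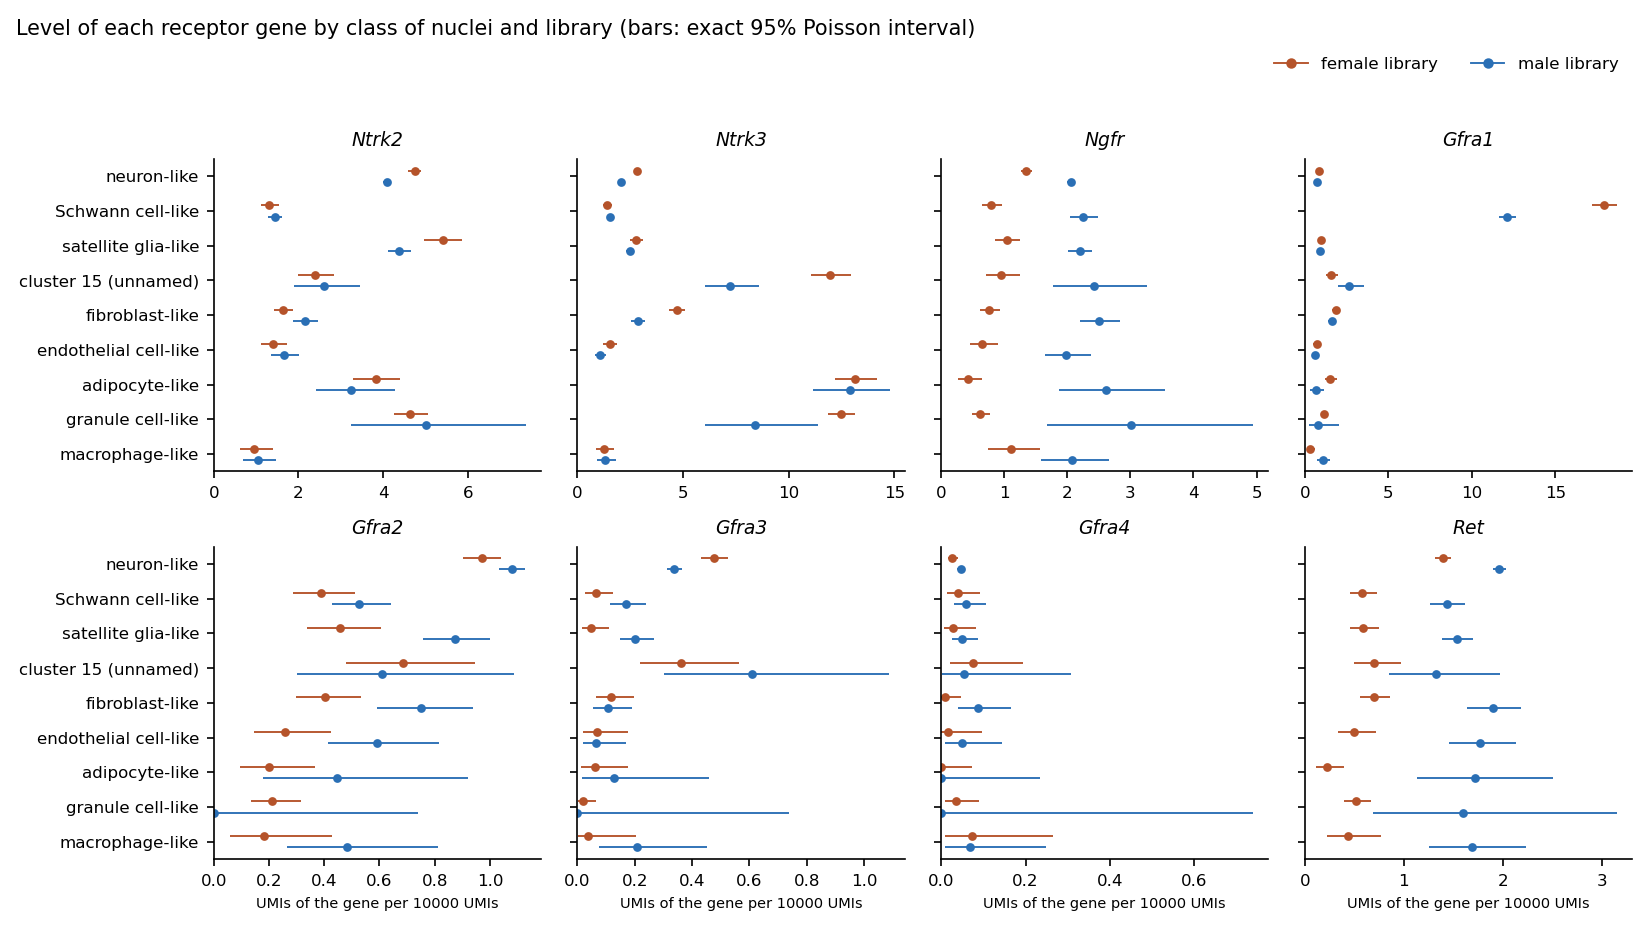
Level of each receptor gene (x axis, UMIs per 10000 UMIs) in 9 classes of nuclei (y axis), with 1 point for each library and bars for the exact 95% Poisson interval. Gfra1 stood far to the right in Schwann cell-like nuclei of both libraries (17.9 and 12.1), and Ngfr and Ret were higher in the male library in most classes, macrophage-like nuclei included.

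Between neuron-like and glia-like nuclei (Schwann cell-like and satellite glia-like together), 1 of the 8 genes was at least 2-fold higher in neurons, Gfra3, against 17.5% of all 18194 genes tested. For Gfra3 the log2 ratio was 3.10 in female and 0.86 in male nuclei, and the count was 3 in the female library alone and 0 in the male library alone. The share of all genes in each library alone is not given here, so these counts have no background beside them. Another, Gfra1, was at least 2-fold lower, against 15.5% of all genes. The median log2 ratio was 0.31 over the 8 genes and -0.13 over all genes tested. Between jugular-type and nodose-type neurons, Ntrk3, Gfra2 and Gfra3 were at least 2-fold higher in the jugular-type (3 of 8, against 7.66% of 15974 genes) and Ntrk2 was at least 2-fold lower (1 of 8, against 9.61%).

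Ntrk2, on chromosome 13 (58806569 to 59133970, plus strand, mm10), was highest in the nodose-type neurons. Its level was 9.01 (8.71 to 9.31) in type 3, with 10.5 in female and 8.28 in male nuclei. In type 4 it was 7.82, with 8.01 in female and 7.70 in male nuclei, and in type 8 it was 6.66, with 8.81 and 5.97. Over both libraries each of these 3 neighbours in the order differed by more than counting error, and they stood above all other neuron types. In the female library alone type 8 (7.40 to 10.4) lay above type 4 (7.57 to 8.47), with intervals that overlapped. The jugular-type neurons were at the other end: type 9 was at 1.21, type 10 at 0.764 and type 7 at 0.582, next to 0.603 in the sympathetic-type. The macrophage-like reference was 0.996 (0.752 to 1.29), so that types 7 and 11 lay below it (log2 ratio -0.77, -1.22 to -0.31, in type 7) and the jugular-type as a whole did not differ from it beyond counting error. Type 9 differed between the libraries, at 1.89 (1.57 to 2.26) in female nuclei, above the reference of that library, and 0.875 (0.721 to 1.05) in male nuclei. The log2 ratio of jugular-type over nodose-type nuclei was -3.35 (-3.48 to -3.23), a level 10.2-fold lower, and was -3.20 in female and -3.46 in male nuclei. Type 6 was between, at 2.15 (2.0 to 2.32). When nuclei were thinned to 1000 UMIs each (8695 of 8714 nuclei had that many), 42.7% of nodose-type and 5.33% of jugular-type nuclei had a UMI of Ntrk2, and 14.0% of macrophage-like nuclei did. Without thinning the shares were 86.1%, 43.9% and 18.4%, at median depths of 10335.5, 11458 and 1799.5 UMIs. Of the neuron types that are mixed or shallow, type 2 was at 5.36, type 5 at 4.28 and type 1 at 3.93.

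Ntrk2 was also high in the satellite glia-like nuclei. It was at 4.70 (4.48 to 4.93) there, with 5.41 in female and 4.39 in male nuclei, and at 1.39 (1.26 to 1.53) in Schwann cell-like nuclei. The log2 ratio of Schwann cell-like over satellite glia-like nuclei was -1.76 (-1.91 to -1.60), and Ntrk2 was the only one of the 8 genes at least 2-fold lower there, against 8.53% of 13935 genes tested. Both satellite glia-like clusters held it. Cluster 9, which led in Ptprz1 and Col28a1, was at 5.34 (4.98 to 5.72), and cluster 4, which led in Ednrb, Fabp7 and Apoe, at 4.19 (3.9 to 4.49). Cerebellar granule cell-like nuclei, which came almost all from the female library (381 of 405), were at 4.66 (4.28 to 5.07), a level that did not differ from that of satellite glia-like nuclei beyond counting error. Over neuron-like nuclei as a whole Ntrk2 was at 4.29 (4.21 to 4.37), only 1.37-fold above the glia.

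Ntrk3, on chromosome 7 (78175959 to 78738012, minus strand), marked a different set of neurons. Type 6, which was neither nodose-type nor jugular-type, was highest at 7.72 (7.42 to 8.02), with 7.34 in female and 7.96 in male nuclei. Type 9, which led in Trpm8, followed at 5.13 (4.81 to 5.46), with 5.30 and 5.05, and type 7 at 2.37 (2.19 to 2.55). The nodose-type neurons were low, at 0.908 in type 3, 0.631 in type 4 and 0.421 in type 8, and so was type 10 at 0.566. All 4 lay below the macrophage-like reference of 1.28 (1.0 to 1.61), although in the female library alone types 3 and 4 did not differ from it beyond counting error. The jugular-type was thus not uniform, with Ntrk3 high in type 9 and low in type 10. Types 7, 1, 5 and 2 followed one another in the order without a difference beyond counting error between neighbours. The log2 ratio of jugular-type over nodose-type nuclei was 1.80 (1.67 to 1.94), with 1.40 in female and 2.08 in male nuclei. In type 11 Ntrk3 was at 5.78 in the 5 female nuclei and at 0.361 in the 126 male nuclei, and 94 of the type's 157 UMIs came from those 5 nuclei. In the male library alone type 11 was the lowest of all types.

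Outside the class named neuron-like, Ntrk3 was highest in adipocyte-like nuclei (13.1, 12.2 to 14.0, with 13.1 in female and 12.9 in male nuclei) and in cerebellar granule cell-like nuclei (12.3, 11.7 to 13). It was also high in cluster 15, an unnamed cluster of 322 nuclei (263 of them female) that had Cdh19, Rasgef1c and Lgi4 among its leading genes. Of the lists used for naming, the fibroblast list was highest there (mean log2 fold 0.74, 6 of 8 markers raised), but the list of nonmyelinating Schwann cell genes, which gave no names, was higher at 1.5. Ntrk3 was at 10.7 (10.0 to 11.5) there, with 12.0 in female and 7.23 in male nuclei. This was 4.19-fold the level of satellite glia-like nuclei (2.57, 2.40 to 2.74) and above that of Schwann cell-like nuclei (1.49, 1.36 to 1.63) by a log2 ratio of 2.85 (2.68 to 3.02). The satellite glia-like clusters differed from each other: cluster 4 was at 3.56 (5.20 in female and 3.29 in male nuclei) and cluster 9 at 1.33 (1.97 and 0.645). Fibroblast-like nuclei were at 3.85 (3.59 to 4.11).

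Ngfr, on chromosome 11 (95568818 to 95587735, minus strand), differed little from the macrophage-like nuclei in the broad classes. Macrophage-like nuclei were at 1.60 (1.29 to 1.97), satellite glia-like at 1.84 (1.70 to 1.99), neuron-like at 1.84 (1.79 to 1.89) and Schwann cell-like at 1.66 (1.52 to 1.81). Over the macrophage-like nuclei of its own library, the neuron-like level gave a log2 ratio of 0.30 (-0.23 to 0.87) in female and -0.01 (-0.38 to 0.38) in male nuclei. The sympathetic-type neurons were the highest, at 4.66 (4.36 to 4.97), with 3.32 (2.49 to 4.33) in the 5 female and 4.78 (4.46 to 5.12) in the 126 male nuclei, which is a log2 ratio to the macrophage-like nuclei of 1.59 (0.92 to 2.29) and 1.21 (0.83 to 1.61). The mixed type 2 came next at 2.86 (2.71 to 3.02), above the reference by log2 ratios of 0.90 (0.33 to 1.52) in female and 0.54 (0.17 to 0.94) in male nuclei. The shallow type 5 was at 2.74 (2.33 to 3.2), with log2 ratios of 0.68 (-0.25 to 1.57) and 0.51 (0.06 to 0.97). The lowest levels were in type 7 (0.456, 0.382 to 0.540) and type 9 (0.697, 0.583 to 0.826), both below the reference. Type 10 was at 1.87 (1.69 to 2.06), and among nodose-type neurons type 4 at 2.05 and type 8 at 2.28 were above type 3 at 1.10. In the female library types 8, 4 and 10 exceeded the macrophage-like nuclei by log2 ratios of 1.40 (0.70 to 2.11), 0.85 (0.31 to 1.44) and 0.85 (0.28 to 1.47), whereas in the male library they were at 0.01 (-0.47 to 0.49), 0.02 (-0.37 to 0.43) and -0.20 (-0.61 to 0.23).

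**Figure D2:**
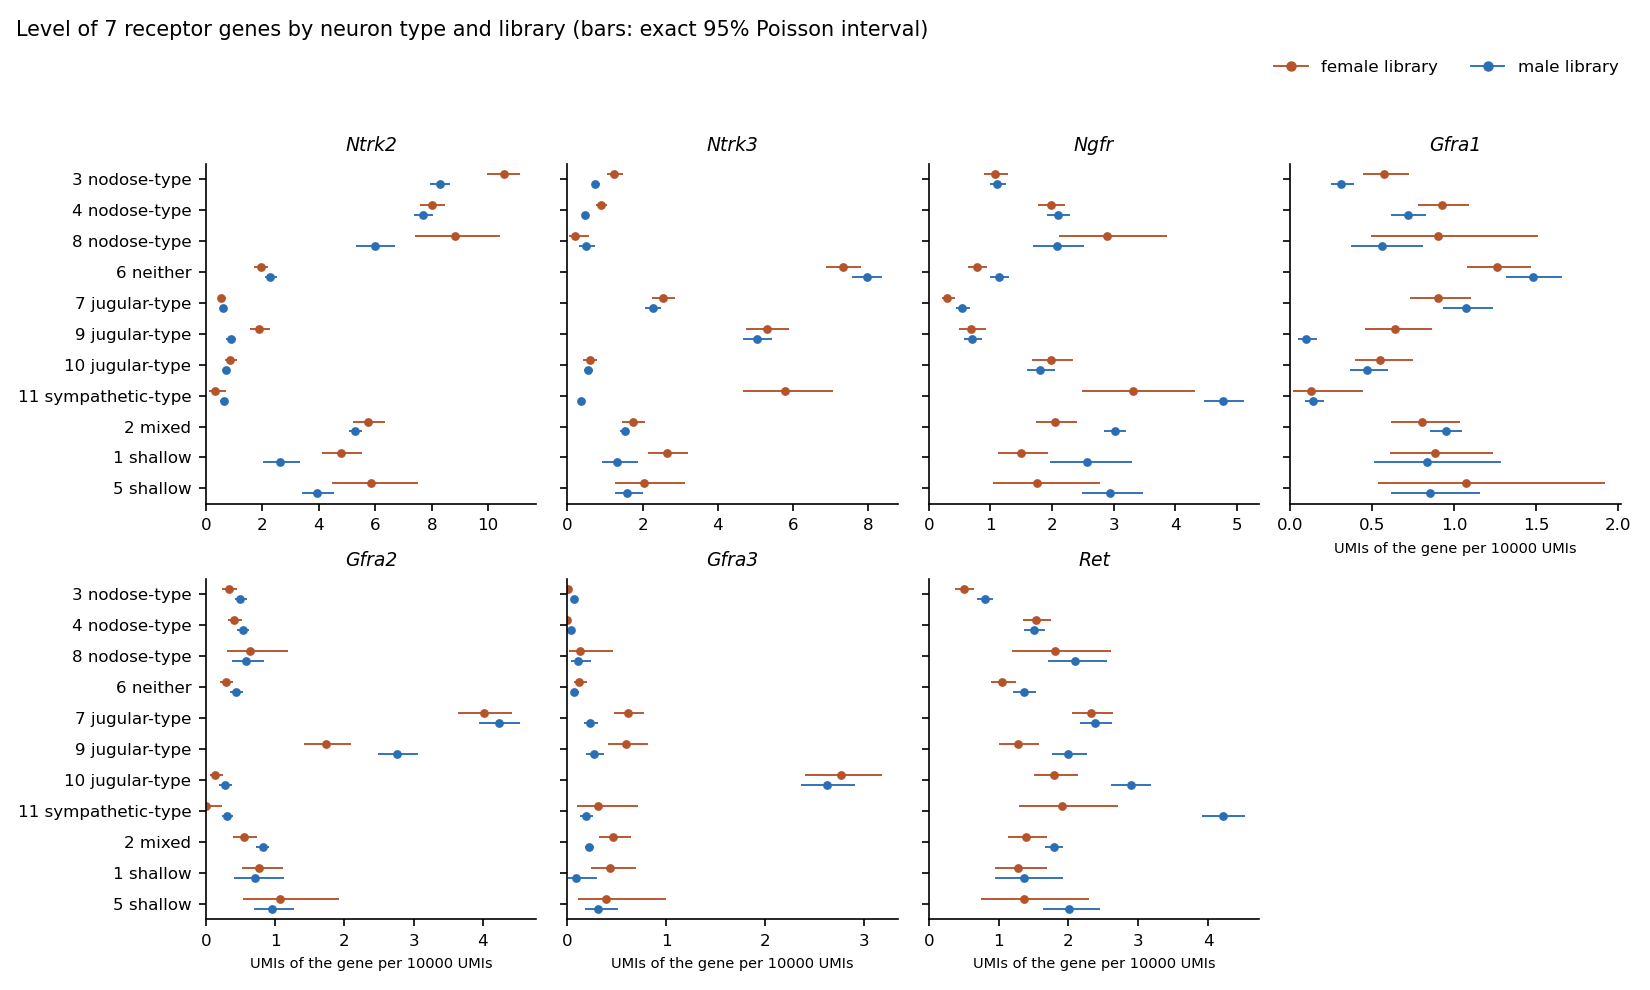
Level of 7 receptor genes (x axis, UMIs per 10000 UMIs) in the 11 neuron types (y axis), with 1 point for each library and bars for the exact 95% Poisson interval. Ntrk2 was high in the nodose-type (types 3, 4 and 8), Ntrk3 in types 6 and 9, Gfra2 in types 7 and 9, Gfra3 in type 10, and Ngfr and Ret in type 11, where the female points rest on 5 nuclei.

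Gfra1, on chromosome 19 (58235604 to 58455909, minus strand), was highest in the Schwann cell-like nuclei. Its level was 14.5 (14.1 to 14.9) there, against 0.926 (0.828 to 1.03) in satellite glia-like, 0.749 (0.716 to 0.783) in neuron-like and 0.711 (0.508 to 0.968) in macrophage-like nuclei. The log2 ratio of Schwann cell-like over satellite glia-like nuclei was 3.97 (3.80 to 4.13), a 15.6-fold higher level, with 4.22 in female and 3.74 in male nuclei. It was the only one of the 8 genes at least 2-fold higher there, against 6.21% of all genes tested. At 1000 UMIs a nucleus, 64.1% of Schwann cell-like and 4.80% of macrophage-like nuclei had a UMI of it. Without thinning these shares were 80.0% and 10.3%, at median depths of 1904 and 1799.5 UMIs.

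The Schwann cell-like nuclei came as 2 clusters, and these differed in Gfra1. Cluster 1 (524 female and 184 male nuclei) was at 18.1 (17.5 to 18.8), with 18.4 (17.7 to 19.2) in female and 17.6 (16.6 to 18.6) in male nuclei. Cluster 6 (22 female and 521 male nuclei), which had Ugt8a and Cldn19 among its leading genes, was at 8.88 (8.36 to 9.42), with 6.80 (4.83 to 9.29) and 8.98 (8.44 to 9.54). The log2 ratio of cluster 1 over cluster 6 was 1.44 (0.98 to 1.94) in the female library and 0.97 (0.85 to 1.09) in the male library. Of the 7 receptor genes with enough UMIs for this comparison, Gfra1 was the 1 that was at least 2-fold higher in cluster 1, against 3.65% of all genes. Ngfr and Ret were at least 2-fold lower there, against 4.65%. Within the libraries the log2 ratio was smaller for Ret, at -0.63 (-1.93 to 1.03) in female and -0.66 (-1.08 to -0.26) in male nuclei, and for Ngfr it was -1.21 (-2.16 to -0.11) and -0.59 (-0.92 to -0.28). In neither library did Ngfr or Ret in cluster 1 exceed macrophage-like nuclei beyond counting error. Within cluster 1 the libraries differed little in Gfra1 (log2 male over female -0.07, -0.17 to 0.04). In cluster 6, with only 22 female nuclei, the male level was higher but the intervals of the libraries overlapped. Over all Schwann cell-like nuclei, however, Gfra1 was lower in the male library (log2 ratio -0.56, -0.65 to -0.48). Of the 705 male nuclei 521 lay in cluster 6. Whether these clusters are kinds of Schwann cell or follow the library was not tested.

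**Figure D3:**
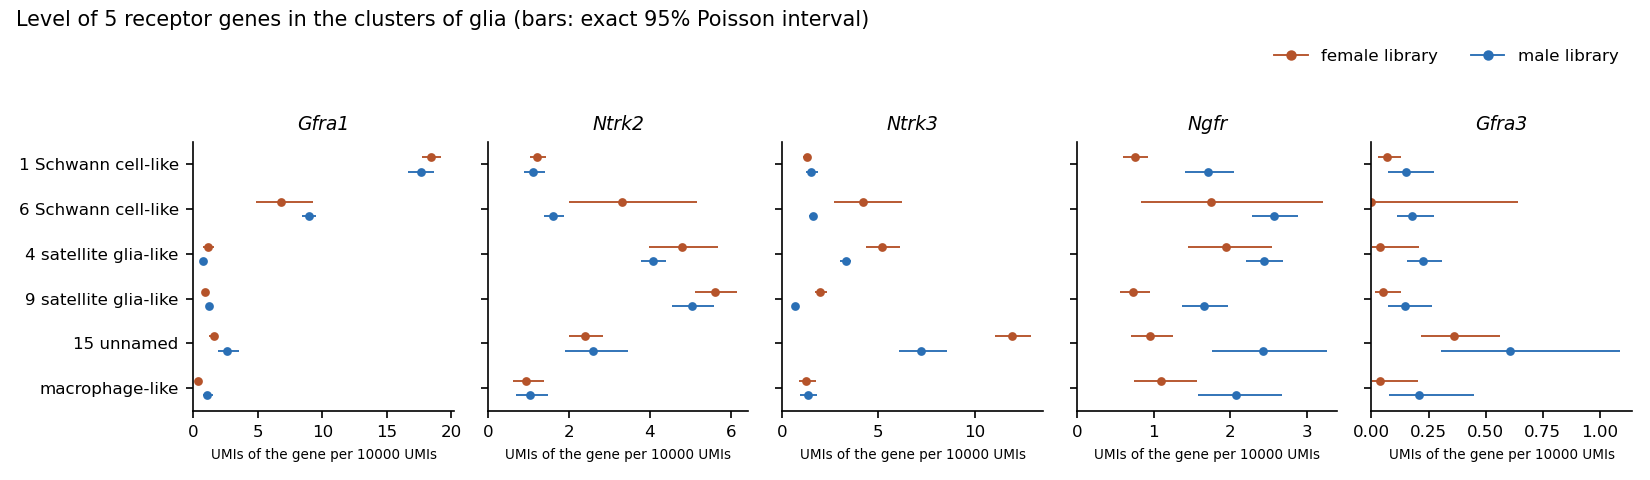
Level of 5 receptor genes (x axis, UMIs per 10000 UMIs) in the clusters of glia and in macrophage-like nuclei (y axis), with 1 point for each library and bars for the exact 95% Poisson interval. Gfra1 was at 18.1 in cluster 1 and 8.88 in cluster 6, Ntrk2 was highest in clusters 4 and 9, and Ntrk3 and Gfra3 in cluster 15.

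In neurons Gfra1 was low. Type 6 was highest at 1.39 (1.27 to 1.52), followed by type 7 at 1.01 (0.899 to 1.13), and the lowest were type 9 at 0.272 (0.203 to 0.357) and the sympathetic-type at 0.136 (0.0891 to 0.20). Over the macrophage-like nuclei the ratio was 1.96-fold in type 6 and 1.42-fold in type 7. By library these were log2 ratios of 1.93 (0.97 to 3.09) and 1.45 (0.47 to 2.62) in female nuclei, but 0.46 (-0.07 to 1.05) and 0.00 (-0.55 to 0.60) in male nuclei. In type 9 the level was 0.636 (0.454 to 0.866) in female and 0.0938 (0.0485 to 0.164) in male nuclei. These values rest on few nuclei, with 40 UMIs in 12 of 48 female and 12 UMIs in 12 of 106 male nuclei.

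Gfra2, on chromosome 14 (70890120 to 70979838, plus strand), was high in type 7, which had Mrgprd among its leading genes (4.16, 3.93 to 4.40, with 4.02 in female and 4.24 in male nuclei), and in type 9 (2.43, 2.21 to 2.66, with 1.73 and 2.77). Every other neuron type was below 1 UMI per 10000, and type 10, the third jugular-type, was the lowest at 0.226 (0.167 to 0.30), followed without a difference beyond counting error by the sympathetic-type at 0.278 (0.208 to 0.364). The nodose-type neurons were at 0.475 (0.430 to 0.524), and macrophage-like nuclei at 0.338 (0.203 to 0.528). Jugular-type over nodose-type nuclei gave a log2 ratio of 2.38 (2.23 to 2.54), with 2.53 in female and 2.32 in male nuclei. Among glia, satellite glia-like nuclei were at 0.745 (0.656 to 0.841), with 0.458 in female and 0.872 in male nuclei, above Schwann cell-like nuclei at 0.470 (0.397 to 0.552). By library, the log2 ratio of Schwann cell-like over satellite glia-like nuclei was -0.25 (-0.85 to 0.36) in female and -0.73 (-1.09 to -0.37) in male nuclei.

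Gfra3, on chromosome 18 (34689898 to 34720387, minus strand), was highest in type 10 among neurons. That type was at 2.67 (2.45 to 2.90), with 2.77 (2.40 to 3.18) in female and 2.62 (2.36 to 2.90) in male nuclei, and held 566 of the 1002 UMIs of Gfra3 in neuron-like nuclei. Types 9 and 7 followed at 0.372 (0.291 to 0.469) and 0.370 (0.304 to 0.447), and type 7 did not exceed the macrophage-like nuclei of the male library (log2 ratio 0.16, -1.08 to 1.69). Male nuclei of type 9 were at 0.266 (0.184 to 0.371), with an interval that overlapped that of male macrophage-like nuclei (0.207, 0.0761 to 0.451). The nodose-type neurons held 35 UMIs, a level of 0.0414 (0.0288 to 0.0575), 3 of them in the female library. The log2 ratio of jugular-type over nodose-type nuclei was 4.70 (4.21 to 5.23), with 6.92 (5.36 to 9.21) in female and 4.08 (3.56 to 4.65) in male nuclei. Macrophage-like nuclei held 7 UMIs (0.124, 0.050 to 0.256), and over both libraries the nodose-type lay below them. In the female library alone the intervals overlapped, at 0.0103 (0.00213 to 0.0302) in nodose-type and 0.0366 (0.000928 to 0.204) in macrophage-like nuclei. Type 10 exceeded the macrophage-like nuclei by a log2 ratio of 6.24 (3.75 to 11.55) in female nuclei, where the reference is 1 UMI, and of 3.66 (2.52 to 5.12) in male nuclei, where it is 6 UMIs. At 1000 UMIs a nucleus, 23.2% of nuclei of type 10 and 1.85% of macrophage-like nuclei had a UMI, and without thinning 74.6% and 2.57% did, at median depths of 12764 and 1799.5 UMIs. Outside the neurons, cluster 15 was at 0.424 (0.286 to 0.605), with log2 ratios to satellite glia-like nuclei of 2.95 (1.48 to 4.72) in female and 1.60 (0.51 to 2.57) in male nuclei. The pooled ratio of 1.47 (0.77 to 2.14) lay below both, with 263 of 322 nuclei of cluster 15 but 296 of 1052 satellite glia-like nuclei in the female library.

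Gfra4, on chromosome 2 (131039632 to 131043088, minus strand), had 184 UMIs in all nuclei and no class or neuron type stood above macrophage-like nuclei (4 UMIs, 0.0711, 0.0194 to 0.182) by more than counting error. Neuron-like nuclei were at 0.0402 (0.0329 to 0.0486) and glia-like nuclei at 0.0472 (0.0320 to 0.0669). In adipocyte-like nuclei it was not detected, where a count of 0, with 3 UMIs as the limit, allows up to 0.0457 UMIs per 10000. Counts of Gfra4 were low in every neuron type. The mixed type 2 held 33 UMIs (0.0722, 0.0497 to 0.101) and the shallow type 5 held 8 (0.137, 0.0591 to 0.270). Both lay above type 4, which held 7 (0.0173, 0.00696 to 0.0357), with intervals that did not overlap.

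Ret, on chromosome 6 (118151745 to 118197718, minus strand), was highest in the sympathetic-type neurons at 4.01 (3.73 to 4.31), with 1.90 (1.29 to 2.70) in the 5 female and 4.21 (3.91 to 4.53) in the 126 male nuclei. Type 10 at 2.51 (2.31 to 2.74) and type 7 at 2.36 (2.19 to 2.55) followed and did not differ from each other beyond counting error. In the female library alone type 7 was the highest, at 2.33 (2.05 to 2.64), with an interval that overlapped that of the sympathetic-type. Type 8 was at 2.03, type 9 at 1.76, type 4 at 1.52, type 6 at 1.24 and type 3 at 0.702 (0.620 to 0.791). Type 3, the highest in Ntrk2, was thus the lowest in Ret. From type 10 down to type 2 (1.72), no neighbours in the order over both libraries differed beyond counting error. Jugular-type over nodose-type nuclei gave a log2 ratio of 0.91 (0.80 to 1.03), with 0.76 in female and 0.98 in male nuclei.

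Much of the Ret signal lay near the level in macrophage-like nuclei. In the female library, neuron-like nuclei exceeded macrophage-like nuclei by a log2 ratio of 1.66 (0.85 to 2.62), and in the male library by 0.21 (-0.19 to 0.65). Satellite glia-like and Schwann cell-like nuclei did not differ from macrophage-like nuclei of their own library beyond counting error, at 0.589 and 0.576 in female and 1.54 and 1.43 in male nuclei. By cluster, cluster 4 exceeded the reference in female nuclei (58 nuclei, log2 ratio 1.49, 0.50 to 2.58) but not in male nuclei (0.05, -0.39 to 0.51), and in male nuclei clusters 1 and 9 lay below it (-0.70, -1.24 to -0.14, and -0.67, -1.20 to -0.13). In the male library types 11, 10 and 7 were above the reference, by log2 ratios of 1.31 (0.90 to 1.76), 0.77 (0.34 to 1.23) and 0.49 (0.07 to 0.95), and type 3 was below it at -1.09 (-1.54 to -0.61). In the female library the same 3 types were at 2.12 (1.11 to 3.21), 2.03 (1.18 to 3.02) and 2.40 (1.57 to 3.38), and type 3 was at 0.18 (-0.73 to 1.21).

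**Figure D4:**
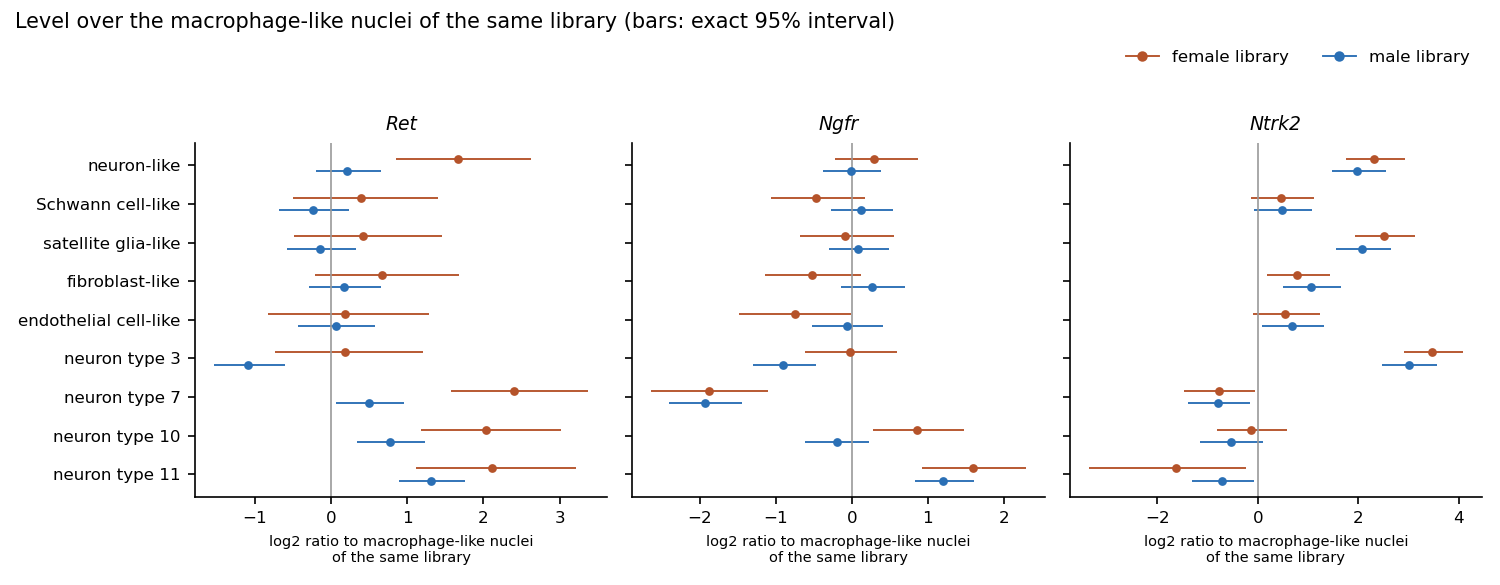
Log2 ratio of the level in a class or neuron type (y axis) to that in macrophage-like nuclei of the same library (x axis) for Ret, Ngfr and Ntrk2, with bars for the exact 95% interval and the grey line at equal levels. Ntrk2 lay far above 0 in type 3 and satellite glia-like nuclei of both libraries, whereas the intervals of Ret in male Schwann cell-like and satellite glia-like nuclei covered 0, and Ret in type 7 was at 2.40 in female and 0.49 in male nuclei.

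Ret needs a Gfra co-receptor, so the nuclei in which both were counted were examined. As sequenced, 67.5% of the 1313 neuron-like nuclei with a Ret UMI also had a UMI of a Gfra gene, against 40.9% of those without Ret. Nuclei with Ret were much deeper, however, with a median of 11352 against 3729 UMIs. When 1370 neuron-like nuclei of sufficient depth were thinned to 5000 UMIs each, the shares were 56.7% (52.8 to 60.5) and 45.7% (42.0 to 49.4). The share with Gfra1 was then 22.6% in nuclei with and 23.2% in nuclei without Ret, and the share with Gfra2 was 31.1% and 23.1%.

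The co-receptor found with Ret differed by neuron type. In type 10, 58 of 80 nuclei with Ret had Gfra3 (72.5%, 61.4 to 81.9) and 7 had Gfra2. In type 7, 66 of 87 nuclei with Ret had Gfra2 (75.9%, 65.5 to 84.4) and 6 had Gfra3. In type 9, 42 of 63 nuclei with Ret had Gfra2 (66.7%, 53.7 to 78.0) and 1 had Gfra3, whereas 20.3% (11.3 to 32.2) of its nuclei without Ret had Gfra3. In type 6 the Gfra gene found most often with Ret was Gfra1, in 27 of 55 nuclei (49.1%, 35.4 to 62.9). The share in its nuclei without Ret is not given here. In male nuclei of type 6, Ret was at 1.37 (1.21 to 1.54), not above macrophage-like nuclei at 1.69 (1.25 to 2.24). Gfra1 did not exceed them there beyond counting error either. The sympathetic-type, the highest in Ret over both libraries, had a Gfra gene in only 9 of 49 nuclei with Ret (18.4%, 8.8 to 32.0). Within types 7 and 11 the shares in nuclei with and without Ret did not differ beyond their intervals for any Gfra gene, and in type 10 Gfra3 was found in 49.0% (34.8 to 63.4) of nuclei without Ret. By library, Gfra2 was found in 71.4% of female and 78.0% of male nuclei of type 7 with Ret, and Gfra3 in 87.5% of female and 66.1% of male nuclei of type 10 with Ret.

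**Figure D5:**
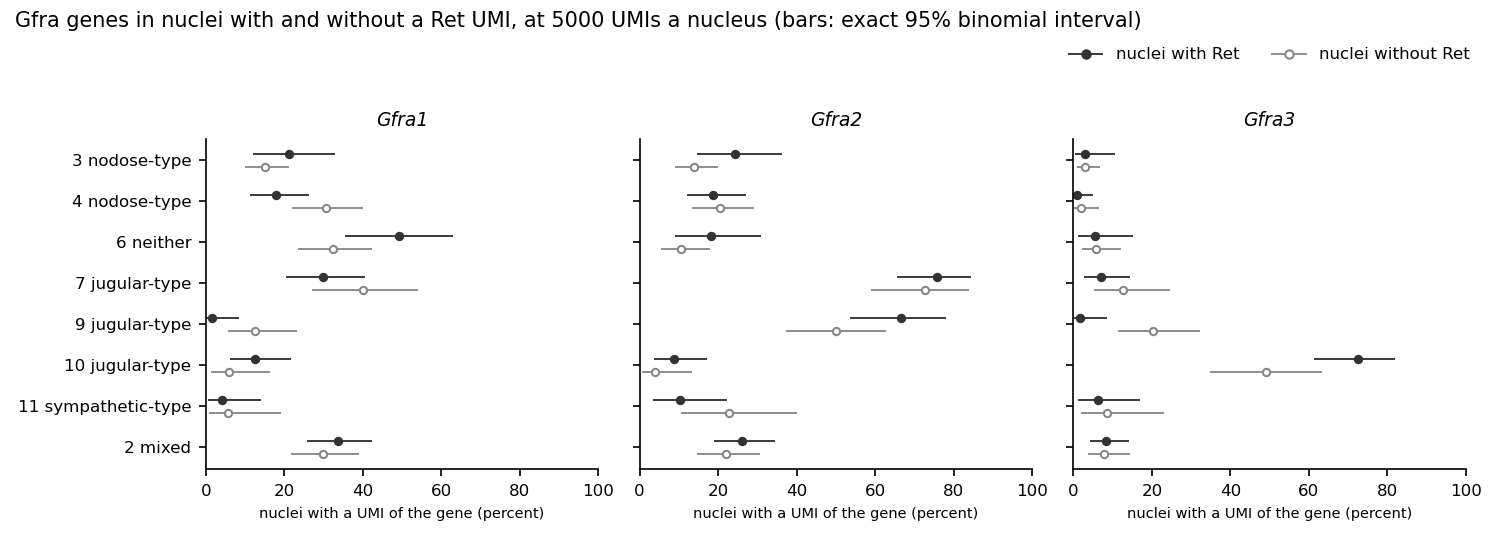
Share of nuclei with a UMI of Gfra1, Gfra2 or Gfra3 (x axis, percent) in 8 neuron types (y axis) after thinning to 5000 UMIs a nucleus, for nuclei with Ret (filled) and without it (open), with bars for the exact 95% binomial interval. Gfra2 was common in types 7 and 9 and Gfra3 in type 10, whether or not Ret was counted in the nucleus.

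Among the genes whose level over the 20 clusters followed a receptor gene most closely, out of 10532 genes with at least 500 UMIs, Gfra1 stood with Emid1 (r = 0.94), Sec14l5 (0.91) and Fa2h (0.90). Ret stood with Fam189b (0.98), Ttl (0.95) and Prph (0.94, a neurofilament-like protein of peripheral neurons), and Ngfr with Tspan8 (0.97), Htr3a (0.97) and Tubb3 (0.96). Ntrk2 stood with Gm47423 (0.90), an antisense gene inside its own span, whose reads cannot be told apart from those of Ntrk2 where strand is not used, and with Mpp2 (0.85) and Slitrk1 (0.83). Gfra2 stood with Ap1ar (0.90), Cpne3 (0.89) and Gm7271 (0.89), and Gfra3 with Tusc3, Wdr47 and Ccdc112 (each 0.85). The best for Ntrk3 were weaker, with Asph (0.76), Msh3 (0.72) and Zfp598 (0.71). The clusters share libraries and depth, and these correlations are descriptions with no test.

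Of the ligands of these receptors, Bdnf was at 0.557 in neuron-like and 0.316 in glia-like nuclei (log2 ratio 0.81, 0.60 to 1.03). Within the glia Bdnf did not differ beyond counting error between Schwann cell-like and satellite glia-like nuclei (log2 ratio -0.15, -0.56 to 0.26). It was slightly lower in jugular-type than in nodose-type neurons, by more than counting error (-0.32, -0.51 to -0.13). Gdnf had 63 UMIs in neuron-like and 4 in glia-like nuclei (log2 ratio 1.97, 0.54 to 3.89). It had 8 UMIs in jugular-type and 30 in nodose-type neurons (-1.62, -2.96 to -0.46).

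Of the 10 other receptors and co-receptors tested, 2 were at least 2-fold higher and 3 lower in neuron-like than in glia-like nuclei, against 17.5% and 15.5% of all genes, with a median log2 ratio of -0.38. Among the Vps10 receptors of the sortilin family the Sorcs genes split, and values of Sort1 are not given here. Sorcs1 was at 1.84 in neuron-like and 14.5 in glia-like nuclei (log2 ratio -2.98, -3.03 to -2.93), Sorcs2 at 0.10 and 0.516 (-2.36, -2.60 to -2.12), and Sorcs3 at 0.601 and 0.0791 (2.93, 2.53 to 3.35). Sorcs3 was among the leading genes of neuron type 6. In Schwann cell-like over satellite glia-like nuclei 0 of 10 were higher and 3 lower, against 6.21% and 8.53% of all genes (median -0.17). These were Ncam1, a Gdnf-binding adhesion molecule (2.47 against 12.8, log2 ratio -2.37, -2.48 to -2.26), Sorcs2 (-2.24, -2.69 to -1.82) and Lingo1, a partner of p75NTR (-1.10, -1.79 to -0.45). In jugular-type over nodose-type neurons 1 of 10 was higher, Lingo1 (1.61, 1.28 to 1.94), and 0 were lower, against 7.66% and 9.61% of all genes (median -0.40), with Sorcs1 at -0.95 (-1.07 to -0.83) and Sorcs2 at -0.94 (-1.65 to -0.27).

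Of the 17 adaptors and signalling genes tested between neuron-like and glia-like nuclei, 3 were at least 2-fold higher and 2 lower, shares near the 17.5% and 15.5% of all genes (median log2 ratio -0.01). Shc4, an adaptor of receptor tyrosine kinases, was at 0.176 in neuron-like and 3.92 in glia-like nuclei (-4.48, -4.62 to -4.33), Gab1 at 0.887 and 4.47 (-2.33, -2.41 to -2.26), and Gab2 at 3.33 and 1.22 (1.46, 1.35 to 1.56). Within the glia Shc4 was highest where Gfra1 was, at 7.34 in Schwann cell-like nuclei and 0.846 in satellite glia-like ones (3.12, 2.94 to 3.30), the 1 higher gene of 16 tested, against 6.21% of all genes. The 2 lower ones, against 8.53%, were Shc3 (0.0354 and 0.491, -3.79, -4.82 to -2.92) and Grb10 (0.241 and 1.07, -2.15, -2.53 to -1.79), and the median of the list was -0.27. Between jugular-type and nodose-type neurons 3 of 17 were higher and 1 lower, against 7.66% and 9.61% of all genes (median -0.02). Dok4, a docking protein of Ret, was at 0.832 and 0.117 (2.83, 2.52 to 3.15), Dok5, another one, at 0.138 and 0.579 (-2.07, -2.40 to -1.75), and Sh2b2 held 31 and 11 UMIs (1.78, 0.75 to 2.92).

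Between the sexes, 0 of the 8 genes differed by 2-fold or more over all neuron-like nuclei, where 2.36% of 17520 genes were at least 2-fold higher and 1.42% at least 2-fold lower in the male library. The log2 ratios of male over female neuron-like nuclei were 0.61 (0.51 to 0.71) for Ngfr, 0.49 (0.40 to 0.59) for Ret and 0.82 (0.12 to 1.58) for Gfra4, and -0.43 (-0.51 to -0.36) for Ntrk3 and -0.22 (-0.27 to -0.16) for Ntrk2. They were 0.15 (0.03 to 0.27) for Gfra2, -0.24 (-0.38 to -0.10) for Gfra1 and -0.50 (-0.68 to -0.31) for Gfra3. Ngfr and Ret were also higher in the male library in glia-like and macrophage-like nuclei, and the makeup of the neuron-like nuclei differed, with 126 of 131 sympathetic-type nuclei in the male library. Within types the difference was smaller or absent in several. Ret gave -0.02 (-0.26 to 0.22) in type 4 and 0.03 (-0.19 to 0.27) in type 7, but 0.69 (0.40 to 0.98) in type 10. Ret was also higher in male than in female nuclei of type 3 (0.798 against 0.497), with intervals that did not overlap. So it was in types 9 and 11, the latter with 5 female nuclei. Ngfr gave 0.05 (-0.26 to 0.36) in type 3, 0.08 (-0.13 to 0.29) in type 4 and -0.14 (-0.44 to 0.17) in type 10. Its level was higher in male than in female nuclei of type 2 (3.02 against 2.06) and type 6 (1.14 against 0.781), with intervals that did not overlap. The same held in types 1, 7 and 11, the last with 5 female nuclei. In type 8 the male level of Ngfr was lower, at 2.08 against 2.89, with intervals that overlapped. Gfra3 gave -0.08 (-0.33 to 0.18) in type 10, where it was high, and -1.40 (-1.99 to -0.82) in type 7, where it was low. The value in type 7 rests on few nuclei, with 65 UMIs in 9 of 61 female and 43 UMIs in 14 of 116 male nuclei. Ntrk3 was not lower in male nuclei of type 6, where it was highest (7.34 in female and 7.96 in male nuclei). In types 9 and 7 its intervals overlapped between the libraries. It was lower in male nuclei of types 1, 3, 4 and 11, with intervals that did not overlap, the last with 5 female nuclei. Sex and library cannot be told apart in these values, and the part of free RNA in them was not tested.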

How the data were processed

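Single-nucleus RNA was sequenced from 1 library of each sex. The deposited counts are UMIs per gene and nucleus, which the authors made with Cell Ranger 7.1.0 on mm10, introns included, after the DIEM filter on debris, with libraries brought to a common depth by cellranger aggr. That step discards reads, so the counts are not the full depth. Doublets were said to be removed before deposit, and none were removed here (Scrublet called 0 female and 1 male nuclei and was not relied on). Libraries were matched to sex by their number of nuclei, and sex-linked genes were then checked.

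Nuclei were clustered (Python 3.11.15, scikit-learn 1.9.0, igraph 0.11.9) on 23441 genes, 10 principal components and 243 neighbours to 20 Louvain clusters. The 8 receptor genes, the pathway lists, sex-linked genes and genes the study listed as differing between sexes were left out. A cluster took the name of its highest marker list if at least 3 markers reached 1.5-fold, and stayed unnamed where another list had more of its leading genes, where the mean log2 fold exceeded 0.8 in 2 further lists, where the nuclei were shallow and none of its own markers led, or where the nonmyelinating Schwann cell or pituitary list was higher and none of its own markers led. Neuron-like nuclei were clustered again (resolution 1.5, chosen after resolution 1.0 had been seen too). The members and lists were chosen with earlier results of these data known. The genes named are the 8 receptors, the 3 of largest ratio in each pathway list with at least 20 UMIs, and the 3 of highest Pearson correlation with each receptor on the log2(level + 0.05) scale. Some results under this rule are not reported here.

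With 1 library per sex no test was made. Sums carry exact Poisson intervals and ratios exact conditional (Clopper-Pearson) ones. In comparisons over all genes 0.5 UMIs were added to both sums, a gene needed 20 UMIs, and a 2-fold change was the limit. A floor of 3 UMIs stands for a count of 0. The functions were tested on simulated data. Alternatives were each library alone, clusters scaled within libraries, 30 clusters, nuclei over 2000 UMIs, a mean over nuclei, removal of the top 5% of Scrublet scores, other UMI minimums and other thinning. Gene coordinates are from GENCODE on mm10. No receptor sequences were used here.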

Additional observations from a re-analysis of the deposited data

Results flagged for a closer look

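Ngfr in neuron-like over glia-like nuclei went in opposite directions in the 2 libraries, with a log2 ratio of 0.57 (0.36 to 0.79) in female and -0.11 (-0.21 to -0.01) in male nuclei. Both intervals exclude 0, but the difference between the libraries was not tested, since each sex is 1 library. Beside it, macrophage-like nuclei were at 1.10 UMIs of Ngfr per 10000 in female and 2.07 in male nuclei, and the glia-like nuclei at 0.907 and 2.22. The part of free RNA in this result was not tested.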

How the results depend on the processing

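No paired analysis was possible because each group is 1 library, and no replicate could be left out. Counts of receptor genes under the alternatives are given here without the share of all genes that goes with them. The number of receptor genes at least 2-fold higher in neuron-like than glia-like nuclei, 1 over both libraries (Gfra3), was 3 in the female library alone (Gfra2, Gfra3 and Ret), 0 in the male library alone, and 2 (Gfra2 and Gfra3) without the sympathetic-type, mixed and shallow neuron types, an alternative added after the data were seen. The number at least 2-fold lower in Schwann cell-like than satellite glia-like nuclei, 1 (Ntrk2), was 2 with scaling within libraries and 2 with a mean over nuclei, with Ntrk3 added in both. With 30 clusters Ntrk3 went from -0.78 to 0.19 on the log2 scale in that comparison, and without those neuron types it went from 0.16 to -0.39 in neuron-like over glia-like nuclei. Ngfr went from 0.07 to -0.40 in the latter, and Gfra3 from -0.29 to 0.70 with 30 clusters in the former. The cause was not tested in any of these. The background share of genes moved with the minimum of UMIs: in neuron-like over glia-like nuclei it was 15.7% higher and 14.5% lower at 50 UMIs, and 18.9% lower with no minimum. In Schwann cell-like over satellite glia-like nuclei it was 5.53% higher and 6.94% lower at 50 UMIs, and 12.8% and 17.7% with no minimum. The share of neuron-like nuclei with Ret that had a Gfra gene fell from 67.5% to 23.9% at 1000 UMIs a nucleus and to 56.7% at 5000 UMIs (added later). The other counts of receptor genes and co-detection shares were within their limits under the alternatives run. Of 236 values for single genes under alternatives, 74 moved beyond their interval, most often in the female library alone (21 values).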
